A study of Mus musculus with 12 samples.

Results

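The 10 genes described here encode the receptor chains, kinases, transcription factor and inhibitors through which ciliary neurotrophic factor (CNTF), leukaemia inhibitory factor (LIF) and their relatives signal. They were chosen by name, with earlier results of these data known: the receptor genes Cntfr, Lifr, Il6st, Osmr and Il6ra, the kinase genes Jak1 and Jak2, the transcription factor gene Stat3, and the inhibitor genes Socs2 and Socs3. They are 10 of the 38887 genes in the deposited table, and all 10 were found there. The values are RPKM, that is, reads scaled to the length of the gene and to the reads of the library. Levels of different genes are thus on one scale, but how closely they can be compared between genes was not tested. A gene was tested if at least 3 libraries reached 1 RPKM, which left 18269 genes, among them 8 of the 10. Osmr and Il6ra did not reach that level and are described by their values alone.

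CNTF is held at the cell surface by the chain encoded by Cntfr, which has no signalling part of its own and works together with LIFR and with gp130, the shared chain encoded by Il6st. LIF uses LIFR with gp130, interleukin 6 uses the chain encoded by Il6ra with gp130, and oncostatin M uses OSMR with gp130. Janus kinases bound to these chains phosphorylate STAT3, which then moves to the nucleus and switches on target genes, among them Socs3. The SOCS3 protein binds gp130 and the kinases and shuts the signal down. In the eye this pathway is known for its part in optic nerve injury, since CNTF supply and deletion of Socs3 both favour regrowth of ganglion cell axons.

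RNA was measured in 12 libraries of hand-picked mouse retinal ganglion cells, in 4 groups of 3, in a study of regulators of axon regeneration. Opn4 cells were red cells of Opn4CreERT/+;R26-tdTomatof/f mice, in which melanopsin-expressing cells carry the reporter once tamoxifen has activated Cre, and HB9 cells were green cells of HB9:GFP mice, a line labelling ON-OFF direction-selective ganglion cells (ooDSGCs). All mice, of both lines, had received tamoxifen at 0.124 mg per g of body weight on 5 days from postnatal day 21, had optic nerve crush or sham surgery at postnatal day 42, and were sampled 3 days later. Cells were pooled, 10 from each animal, and 3 such pools made 1 sample of 30 cells. Cre and the red reporter belong to the Opn4 line alone, so a difference between the classes cannot be told apart from a difference between the lines, whereas crush was compared with sham within each line. The labels do not say whether samples of a group shared animals, so p-values measure the spread between these samples.

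The libraries had been scaled to between 15104446 and 28195798 reads and held 15021 to 16514 genes at 1 RPKM or more. All 6 ganglion cell markers were at 1 RPKM or more in all 12 libraries, and the summed level of the 2 melanopsin-class markers (Opn4 and Eomes) was 1552 to 2181 RPKM in Opn4 libraries and 0.158 to 32.2 RPKM in HB9 libraries. Of the HB9-class markers, Mnx1 had 20.9 to 41.7 RPKM in HB9 sham and 1.13 to 3.06 RPKM in HB9 crush, and Cartpt had 4731 to 5935 RPKM in HB9 sham and 1364, 5898 and 6395 RPKM in HB9 crush. In Opn4 libraries Mnx1 was at most 0.144 RPKM and Cartpt at most 177 RPKM. Summed ganglion cell markers were 4639 to 5024 RPKM in Opn4 sham, 3728 to 4409.7 RPKM in Opn4 crush, 7099 to 7967 RPKM in HB9 sham and 4296 to 4844 RPKM in HB9 crush, and the part of these shifts in the results with crush was not tested. Rod markers were present in every library, with summed levels of 652 to 2863 RPKM in Opn4 cells and 207 to 865 RPKM in HB9 cells. In the principal component analysis, Opn4 sham replicate 1 and Opn4 crush replicate 1 stood apart from the other libraries on the third axis, at 83.8 and -61.9. Opn4 crush replicate 1 also held glial RNA, with 73.0 RPKM of Apoe and 86.6 RPKM of Rlbp1. In pools of cells, fewer expressing cells and less RNA per cell cannot be told apart.

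Promoter sequences are shown for Stat3 and Socs3, since STAT3 acts on its targets at the motif TTCNNNGAA and Socs3, a known target, is the member with the largest difference past the threshold between the classes. RefSeq promoters on build GRCm38.p6 were found for 9 of the 10 genes, 15 promoters in all, each running from 250 bases before the start to 50 bases after it. The motif reads the same on both strands, and 1 of the 9 genes, Socs3, held it. Of all 27025 genes with such promoters, 9.55% held the motif in at least 1, and of all 32851 promoters 8.30% did. The printed stretches are the 250 bases before the start, 5′ to 3′ on the minus strand, in lower case, with the motif in capitals. The Socs3 stretch lies at chr11:117969367-117969616 and the Stat3 stretch, which holds no match, at chr11:100939541-100939790.
Socs3: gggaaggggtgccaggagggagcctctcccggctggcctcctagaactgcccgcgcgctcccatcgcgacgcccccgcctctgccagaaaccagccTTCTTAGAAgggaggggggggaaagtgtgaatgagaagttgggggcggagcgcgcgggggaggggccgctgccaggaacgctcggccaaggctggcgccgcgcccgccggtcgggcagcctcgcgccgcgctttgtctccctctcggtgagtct
Stat3: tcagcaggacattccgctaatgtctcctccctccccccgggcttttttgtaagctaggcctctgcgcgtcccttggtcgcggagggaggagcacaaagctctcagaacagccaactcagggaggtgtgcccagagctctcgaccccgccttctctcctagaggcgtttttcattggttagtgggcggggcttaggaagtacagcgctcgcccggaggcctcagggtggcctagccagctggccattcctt
The match in Socs3 lies at chr11:117969512-117969520, inside the GENCODE gene, over 1 annotated transcript and in none of its exons. A match is a stretch of letters and was not tested for binding here.

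Crush was compared with sham in each class to ask which genes respond to axon injury. Cntfr rose after crush in both classes, to about the same level. Lifr and Stat3 rose in HB9 cells. In Opn4 cells Stat3 was also higher in every crush library than in any sham library but missed the threshold, and Lifr did not pass. Jak1, Jak2, Il6st, Socs2 and Socs3 passed in neither class. Errors of RPKM below are SD with n = 3 libraries, log2 changes are on the log2(RPKM + 1) scale with limma's SE, and adjusted p values are Benjamini-Hochberg values over all genes tested.

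The count past an adjusted p of 0.05 was 1 of the 8 tested genes for crush in Opn4 cells, where 1.11% of all genes passed, and 3 of 8 in HB9 cells, where 6.42% passed. All of these were higher after crush, and the shares of all genes that passed in that direction were 0.690% and 3.84%. The median log2 change over the 8 genes was 0.78 in Opn4 cells and 0.27 in HB9 cells, against -0.02 and 0.11 over all genes tested. Libraries of crush and sham did not overlap for 2 of 8 genes in Opn4 cells (Cntfr and Stat3) and 3 of 8 in HB9 cells (Cntfr, Lifr and Stat3), against 14.7% and 31.5% of all genes in either direction. Quantile normalization moved the median of all genes in HB9 cells from 0.11 to -0.01, so log2 changes there are read relative to that shift, and it moved the share of HB9 calls that were higher from 59.9% to 49.8%.

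**Figure D1:**
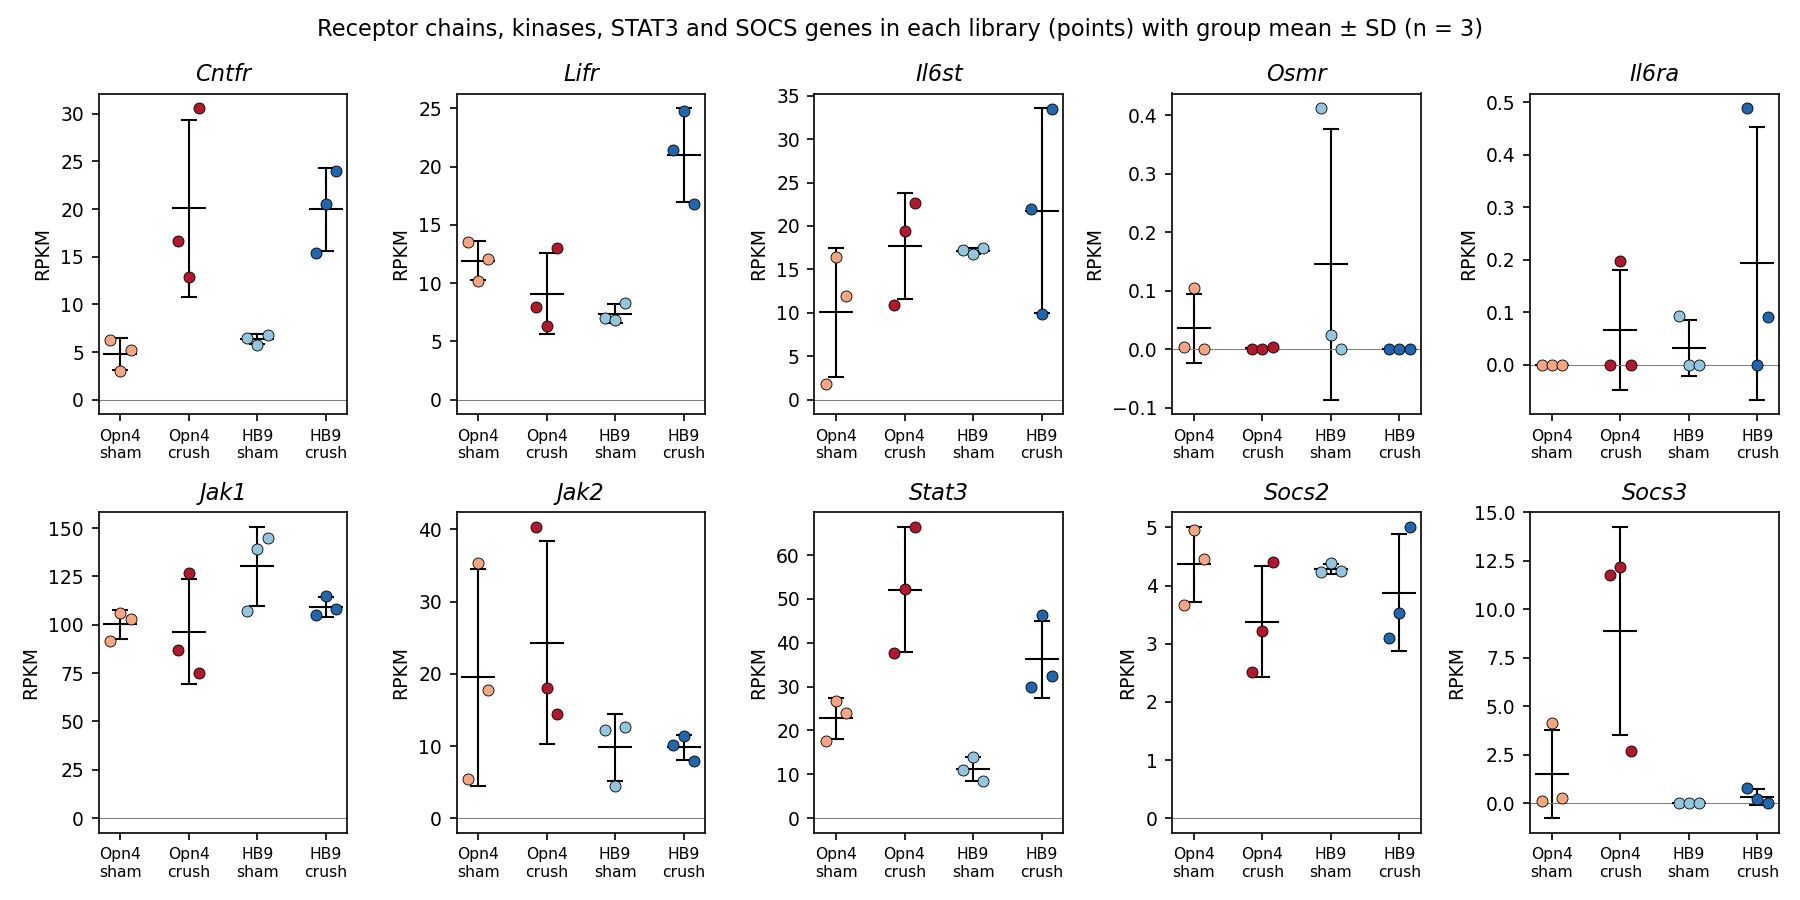
RPKM of the 10 genes in each library (points), with the mean (long bar) and SD (whiskers) of the 3 libraries of each group; each panel has its own linear axis, and whiskers that reach below 0 are those of genes near 0. Cntfr and Stat3 are higher in every crush library than in any sham library of the same class, Lifr is so in HB9 cells, and Osmr and Il6ra stay under 0.5 RPKM.

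The receptor chains come before the kinases in the pathway and are taken first. Cntfr (ENSMUSG00000028444, chr4:41657498-41697089, mm10, minus strand) had 6.28, 3.00 and 5.20 RPKM in the Opn4 sham libraries and 16.7, 12.9 and 30.6 RPKM in the Opn4 crush libraries. In HB9 cells it had 6.52, 5.75 and 6.82 RPKM after sham and 15.4, 20.5 and 24.0 RPKM after crush. Every crush library of either class was above all sham libraries of both, and Opn4 crush replicate 3 was the highest. Group means went from 4.82 ± 1.67 to 20.1 ± 9.30 RPKM in Opn4 cells and from 6.36 ± 0.552 to 20.0 ± 4.35 RPKM in HB9 cells. The log2 change was 1.81 ± 0.39 in Opn4 cells (adjusted p = 0.0452, limma) and 1.49 ± 0.39 in HB9 cells (adjusted p = 0.0382, limma). The difference between the changes was 0.32 ± 0.55, with a 95% interval from -0.87 to 1.51 (adjusted p = 0.871, limma).

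Both Cntfr calls lay near the threshold. In Opn4 cells the call was lost in 18 of 20 alternative fits, where the adjusted p ranged from 0.0358 to 0.378 and the log2 change from 1.47 to 2.07. It was lost on leaving out any library other than Opn4 crush replicate 2, and with the replicate number as a block the adjusted p was 0.0553. Without the pair of libraries that stood apart, the change was 2.07 with an adjusted p of 0.0682. In HB9 cells the call was lost in 8 of 20 fits, with an adjusted p between 0.0189 and 0.152: on leaving out any 1 of the 6 HB9 libraries, with quantile normalization (0.0772) and with rod markers as a covariate (0.0583). The direction was the same in all 40 of these fits.

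Lifr (ENSMUSG00000054263, chr15:7129559-7197489, plus strand) encodes the second signalling chain. Its levels were 13.5, 10.2 and 12.1 RPKM in Opn4 sham and 7.93, 6.35 and 13.0 RPKM in Opn4 crush. The HB9 libraries held 6.99, 6.81 and 8.31 RPKM after sham and 21.4, 24.8 and 16.8 RPKM after crush. HB9 crush stood above all 9 other libraries, while Opn4 crush overlapped Opn4 sham through its replicate 3. The means were 11.9 ± 1.67 and 9.10 ± 3.49 RPKM in Opn4 cells, and in HB9 sham the mean was 7.37 ± 0.819 RPKM. Lifr rose 2.85-fold in HB9 cells with crush, with a log2 change of 1.38 ± 0.34 (adjusted p = 0.0283, limma). In Opn4 cells the log2 change was -0.40 ± 0.34, with a 95% interval from -1.13 to 0.33 (adjusted p = 0.631, limma).

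The crush effects on Lifr differed by -1.78 ± 0.48 between Opn4 and HB9 cells, with a 95% interval from -2.82 to -0.75. It did not pass (adjusted p = 0.121, limma), nor did it in any of 19 alternative fits (adjusted p from 0.0556 to 0.250). None of the 8 tested genes passed for the difference between the classes' crush effects, by limma on RPKM or by voom, for which 0.816% of all genes passed on RPKM. At an unadjusted p under 0.05 there was 1 of 8, Lifr, by either method, against 2351 of all 18269 genes tested on RPKM. The Lifr call in HB9 cells was lost with quantile normalization (log2 change 1.19, adjusted p = 0.0614) and on leaving out any 1 of the 6 HB9 libraries (adjusted p up to 0.114), and held in the other 13 of 20 fits.

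Il6st (ENSMUSG00000021756, chr13:112464070-112510086, plus strand) encodes gp130, the chain that all these receptors share. It had 1.83, 16.4 and 11.9 RPKM in Opn4 sham and 10.9, 19.4 and 22.7 RPKM in Opn4 crush. It had 17.2, 16.8 and 17.5 RPKM in HB9 sham and 21.9, 9.86 and 33.5 RPKM in HB9 crush. Crush and sham overlapped in both classes, and the lowest value was in Opn4 sham replicate 1, a library that stood apart. The log2 change was 1.06 ± 0.61 in Opn4 cells (adjusted p = 0.467, limma) and 0.17 ± 0.61 in HB9 cells (adjusted p = 0.929, limma). Their 95% intervals ran from -0.26 to 2.38 and from -1.15 to 1.50. The value in Opn4 cells was 0.26 without Opn4 sham replicate 1 and 0.55 without the pair that stood apart.

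Osmr (ENSMUSG00000022146, chr15:6813577-6874969, minus strand), the chain specific to oncostatin M, was listed at 0 in 7 of 12 libraries, including all 3 of HB9 crush. Its highest value was 0.412 RPKM, in HB9 sham replicate 1. Il6ra (ENSMUSG00000027947, chr3:89869324-89913162, minus strand), the chain that binds interleukin 6, was listed at 0 in 8 of 12 libraries, including all 3 of Opn4 sham. Its highest value was 0.489 RPKM, in HB9 crush replicate 1, and all of its other values were at or below 0.198 RPKM. Both genes were thus far below Cntfr, Lifr and Il6st, whose lowest value in any library was 1.83 RPKM.

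The balance of the CNTF receptor chains can be read within each library. In Opn4 cells the log2 ratio of Cntfr to Lifr RPKM was -1.11, -1.76 and -1.22 after sham and 1.08, 1.02 and 1.23 after crush. In HB9 cells it was -0.10, -0.24 and -0.29 after sham and -0.48, -0.27 and 0.51 after crush. Cntfr was thus below Lifr in all 6 sham libraries, above it in all 3 Opn4 crush libraries, and above it in 1 of 3 HB9 crush libraries. The lowest of the 3 chains was Lifr in each Opn4 crush library and Cntfr in each HB9 sham library. In Opn4 sham it was Il6st in replicate 1 and Cntfr in the other libraries, and in HB9 crush it was Cntfr, Il6st and Lifr in replicates 1, 2 and 3. These ratios are a description of RNA levels and were given no test.

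**Figure D2:**
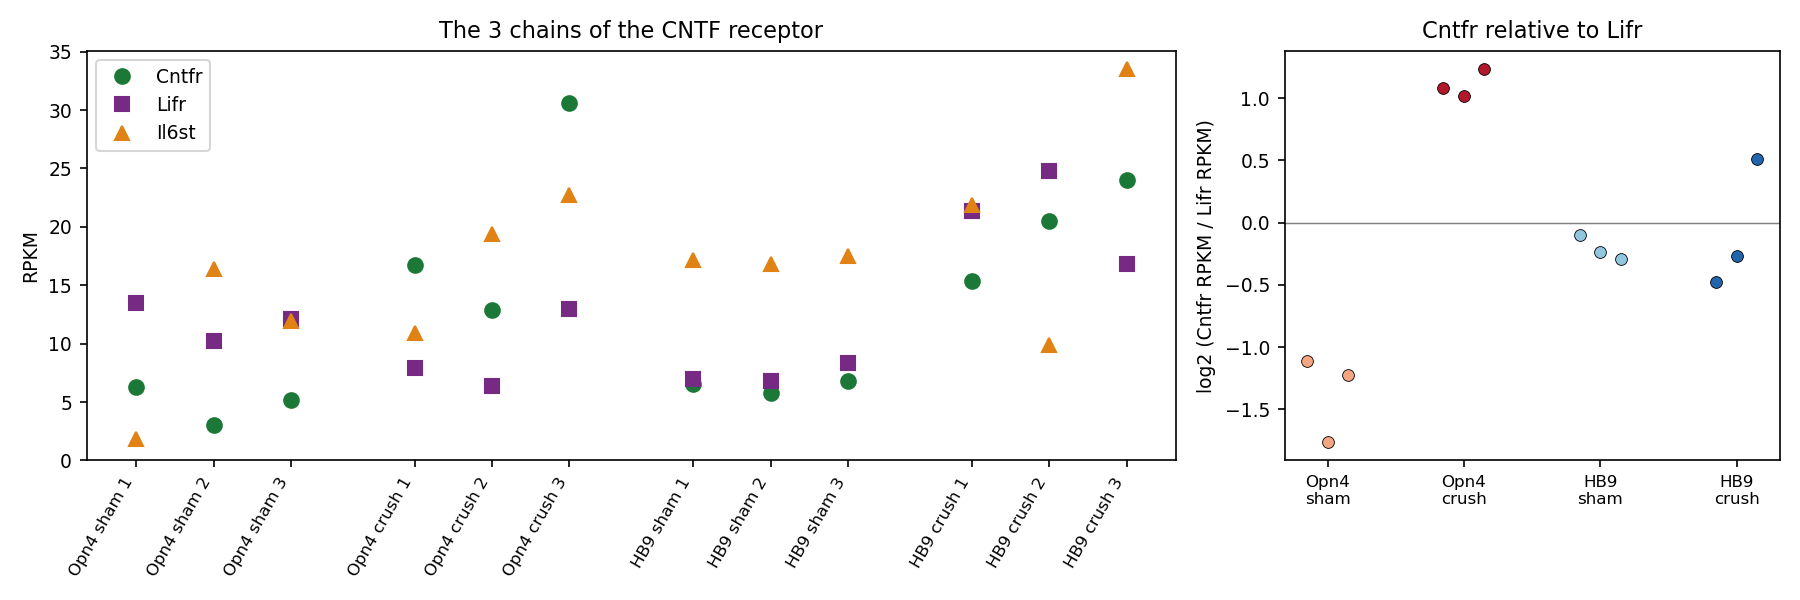
Left, RPKM of Cntfr (circles), Lifr (squares) and Il6st (triangles) in each library on a linear axis; right, the log2 ratio of Cntfr to Lifr RPKM, with 1 point per library and a line at equal levels. The Opn4 libraries lie between -1.76 and -1.11 after sham and between 1.02 and 1.23 after crush, and the HB9 libraries lie between -0.48 and 0.51.

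Jak1 (ENSMUSG00000028530, chr4:101152367-101265282, minus strand), the main kinase bound to gp130, was the most abundant of the 10 genes in every library. It had 91.5, 106 and 103 RPKM in Opn4 sham and 87.0, 127 and 75.1 RPKM in Opn4 crush. HB9 sham libraries held 107, 139 and 145 RPKM and HB9 crush libraries 105, 115 and 108 RPKM. Crush and sham overlapped in both classes. The log2 change was -0.09 ± 0.20 in Opn4 cells (95% interval from -0.53 to 0.35, adjusted p = 0.891, limma) and -0.23 ± 0.20 in HB9 cells (95% interval from -0.67 to 0.21, adjusted p = 0.624, limma). These intervals are the narrowest among the 8 genes. Jak1 overlaps Raver2 on the opposite strand and the pseudogene Gm12785 on its own, which reached 6.88 and 3.69 RPKM, and whether counting used strand is not given in the sources used here.

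Jak2 (ENSMUSG00000024789, chr19:29251828-29313080, plus strand), the kinase also used by hormone receptors, varied more between libraries. It had 5.38, 35.4 and 17.7 RPKM in Opn4 sham, 40.4, 18.1 and 14.4 RPKM in Opn4 crush, 12.2, 4.49 and 12.7 RPKM in HB9 sham, and 10.1, 11.4 and 7.90 RPKM in HB9 crush. Crush and sham overlapped in both classes, and the extremes of the Opn4 range included both libraries that stood apart. The log2 change was 0.50 ± 0.60 in Opn4 cells (adjusted p = 0.748, limma) and 0.10 ± 0.60 in HB9 cells (adjusted p = 0.963, limma). Without the pair that stood apart, the value in Opn4 cells was -0.60, also not past the threshold.

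Stat3 (ENSMUSG00000004040, chr11:100885098-100939540, minus strand) is the transcription factor at the end of the pathway. It had 17.6, 26.7 and 24.0 RPKM in Opn4 sham and 37.7, 52.3 and 66.4 RPKM in Opn4 crush. It had 11.0, 14.0 and 8.50 RPKM in HB9 sham and 29.9, 46.3 and 32.5 RPKM in HB9 crush. All 6 crush libraries were above all 6 sham libraries, and within sham the Opn4 libraries were above the HB9 libraries. Stat3 rose 3.25-fold in HB9 cells, from 11.1 ± 2.73 to 36.2 ± 8.82 RPKM, with a log2 change of 1.62 ± 0.30 (adjusted p = 0.00574, limma). This was the call with the most room: it held in all 20 alternative fits, with a log2 change of 1.42 to 1.78 and an adjusted p of 0.00349 to 0.0341.

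In Opn4 cells the Stat3 means were 22.8 ± 4.66 RPKM after sham and 52.1 ± 14.3 RPKM after crush. The log2 change of 1.15 ± 0.30 had a 95% interval from 0.49 to 1.80 but did not pass (adjusted p = 0.0942, limma), and passed in none of 20 alternatives (adjusted p from 0.0679 to 0.336). The crush effects on Stat3 in the 2 classes differed by -0.47 ± 0.43 (adjusted p = 0.705, limma), so a pass in one class and a miss in the other does not show that they differ. Stat3 overlaps the end of Stat5a on the opposite strand, which reached 7.24 RPKM at most.

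**Figure D3:**
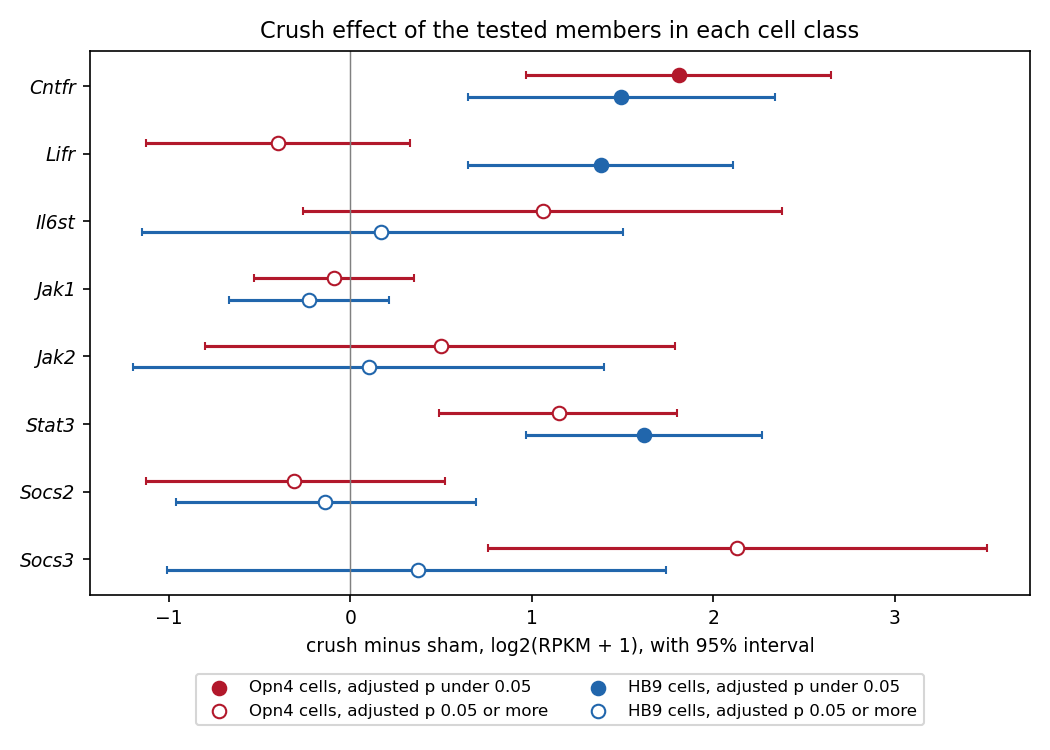
Crush minus sham on the log2(RPKM + 1) scale for the 8 tested genes, in Opn4 cells (red) and HB9 cells (blue), as the limma estimate with its 95% interval; filled points have an adjusted p under 0.05. Cntfr is filled in both classes and Lifr and Stat3 in HB9 cells, and the intervals of Il6st, Jak1, Jak2 and Socs2 include 0 in both.

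Socs2 (ENSMUSG00000020027, chr10:95385362-95417180, minus strand), an inhibitor best known from growth hormone signalling, was low and even. It had 3.67, 4.96 and 4.46 RPKM in Opn4 sham, 2.51, 3.22 and 4.41 RPKM in Opn4 crush, 4.23, 4.39 and 4.25 RPKM in HB9 sham, and 3.10, 3.53 and 5.01 RPKM in HB9 crush. Crush and sham overlapped in both classes. The log2 change was -0.31 ± 0.38 in Opn4 cells (95% interval from -1.13 to 0.52, adjusted p = 0.757, limma) and -0.14 ± 0.38 in HB9 cells (95% interval from -0.96 to 0.69, adjusted p = 0.905, limma).

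Socs3 (ENSMUSG00000053113, chr11:117966079-117970047, minus strand), the feedback inhibitor with the STAT motif shown above, was found almost wholly in Opn4 libraries. It had 0.106, 4.15 and 0.306 RPKM in Opn4 sham and 11.8, 12.2 and 2.70 RPKM in Opn4 crush. It was listed at 0 in all 3 HB9 sham libraries and had 0.773, 0.209 and 0 RPKM in HB9 crush. In recovered reads these were 7, 181 and 19 in Opn4 sham, 592, 640 and 165 in Opn4 crush, and 52, 17 and 0 in HB9 crush. The count of 0 over the HB9 sham group allows up to 3 reads, or 0.0155 RPKM, for counting error only, and each Opn4 sham library was above that floor.

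Within Opn4 cells, Socs3 had a log2 change of 2.13 ± 0.63 with crush, from 1.52 ± 2.28 to 8.91 ± 5.38 RPKM, and did not pass (adjusted p = 0.140, limma). Crush replicate 3 lay below sham replicate 2, so the groups overlapped. The size of the change depended on the fit: it was 1.43 without the pair of libraries that stood apart (adjusted p = 0.426), 3.39 with a pseudocount of 0.1 (0.254), 3.84 with voom (0.274) and 2.74 without crush replicate 3 (0.0588). It passed in 1 of 20 fits, without sham replicate 2 (2.83, adjusted p = 0.0428), and in the other 19 the adjusted p was at most 0.546. In HB9 cells the log2 change was 0.37 ± 0.63 (adjusted p = 0.836, limma). The effects differed by 1.77 ± 0.90 (adjusted p = 0.438, limma).

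The classes were compared within each surgery to ask how Opn4 and HB9 cells differ in these genes. After crush, Socs3 was higher and Lifr lower in Opn4 cells than in HB9 cells, and after sham no gene passed, with Stat3 just outside the threshold. The counts by limma were 0 of 8 after sham, where 11.8% of all genes passed, and 2 of 8 after crush, where 12.7% passed. After sham, 1 of 8 genes (Stat3) had an unadjusted p under 0.05 by limma, against 4519 of all 18269 genes tested. With voom none of the 8 passed, and 3 had an unadjusted p under 0.05. Opn4 and HB9 libraries did not overlap for 5 of 8 genes after sham (Lifr, Il6st, Jak1, Stat3 and Socs3) and 3 of 8 after crush (Lifr, Jak2 and Socs3), against 30.7% and 30.4% of all genes. The median log2 difference over the 8 genes was 0.32 after sham and -0.11 after crush, against 0.01 and -0.12 over all genes.

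After crush, the mean level of Socs3 was 8.91 ± 5.38 RPKM in Opn4 libraries and 0.327 ± 0.400 RPKM in the HB9 libraries, 1 of which was at 0. The log2 difference was 2.73 ± 0.63 (adjusted p = 0.0136, limma), and it was 4.63 with a pseudocount of 0.1 and 6.10 with voom, both past the threshold. On leaving out 1 library it was 2.42 to 3.34. The call was lost in 2 of 20 fits, with rod markers as a covariate (log2 difference 2.29, adjusted p = 0.145) and without HB9 crush replicate 3 (2.55, adjusted p = 0.0578). Summed rod markers were 1029 to 2863 RPKM in Opn4 crush and 498 to 853 RPKM in HB9 crush. Lifr was 2.31-fold lower in Opn4 cells after crush, with a log2 difference of -1.16 ± 0.34 (adjusted p = 0.0399, limma). That call was lost in 14 of 20 fits, with an adjusted p between 0.0130 and 0.219. It was lost with quantile normalization (0.0528), the replicate block (0.0619), only the groups compared (0.105) and the rod covariate (0.219), without the pair of libraries that stood apart (0.0768), and on leaving out any 1 of 9 libraries, namely Opn4 sham replicate 3, Opn4 crush replicates 1 and 2 and each HB9 library. The log2 difference stayed between -1.42 and -0.96. Before injury the order of Lifr was the other way, with every Opn4 sham library above every HB9 sham library, but the log2 difference of 0.62 ± 0.34 did not pass (adjusted p = 0.284, limma).

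Stat3 after sham was 2.04-fold higher in Opn4 cells, with a log2 difference of 0.97 ± 0.30 that missed the threshold (adjusted p = 0.0543, limma). It passed in 4 of 20 fits: with the replicate block (0.0483), without the pair of libraries that stood apart (0.0285), without Opn4 sham replicate 1 (0.0438) and without Opn4 crush replicate 1 (0.0413). After crush the Stat3 difference was 0.50 ± 0.30 (adjusted p = 0.317, limma). Between the classes, the other genes had log2 differences after sham and crush of -0.38 and -0.06 for Cntfr, -1.08 and -0.19 for Il6st, -0.37 and -0.22 for Jak1, 0.71 and 1.11 for Jak2, and 0.01 and -0.16 for Socs2. None of these passed, with an adjusted p of 0.265 or more. Without the pair that stood apart, the differences after sham were -0.28 for Il6st and 1.38 for Jak2.

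Set in order of group means, Cntfr had Opn4 crush (20.1 RPKM) and HB9 crush (20.0 RPKM) together, then HB9 sham and Opn4 sham together, with no overlap between crush and sham. Stat3 ran from Opn4 crush through HB9 crush and Opn4 sham to HB9 sham, and in this order the first pair overlapped while each later step did not. Lifr ran from HB9 crush to Opn4 sham, Opn4 crush and HB9 sham, and only the step below HB9 crush had no overlap between neighbours. In Jak1, Jak2 and Socs2 all neighbouring groups overlapped, and in Il6st all did except HB9 sham and Opn4 sham.

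The wider pathway was followed in 62 further genes in 6 lists, of which 42 were tested. By limma, none of the 42 passed for crush in Opn4 cells, 2 rose and none fell in HB9 cells, and none passed for the difference between these effects. The shares of all genes that passed were 1.11%, 6.42% and 0.816%. At an unadjusted p under 0.05 there were 8, 8 and 4 of 42, against 2619, 3445 and 2351 of all 18269 genes tested. With voom 0, 1 and 0 of the 42 passed. After sham, 5 were higher and 2 lower in Opn4 than in HB9 cells, and after crush 3 were higher and 3 lower. Of all genes 11.8% and 12.7% passed in these comparisons. Voom passed 3 and 4 of the 42 in all. The median log2 change over the 42 genes was 0.14 in Opn4 cells and 0.37 in HB9 cells, against -0.02 and 0.11 over all genes.

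The ligands of the pathway were near or at 0. Of 11 cytokine genes of the gp130 family, 3 were tested (Cntf, Clcf1 and Ebi3) and none passed in any comparison. Cntf had 3.04 RPKM in Opn4 crush replicate 3, 2.52 and 1.45 RPKM in HB9 crush replicates 1 and 2, and was listed at 0 in the other 9 libraries. Osm was listed at 0 in all 12 libraries, Lif and Il6 in 11 of 12, with highest values of 0.0116 and 0.287 RPKM. Ctf1 reached 3.48 RPKM, in 1 HB9 crush library, and Clcf1 and Ebi3 reached 1.56 and 1.81 RPKM. Ctf2 reached 1.23 RPKM, and Il11 and Il27 stayed at or below 0.463 RPKM.

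Of 5 other receptors of this type, 1 was tested and it did not pass. It was Il11ra1, the interleukin 11 receptor chain, chosen for mention after its values were seen, and its reads may be shared with near-identical copies in the mouse genome. Its HB9 libraries held 5.47, 9.16 and 5.40 RPKM after sham and 23.0, 23.1 and 22.6 RPKM after crush, without overlap (log2 change 1.67 ± 0.55, adjusted p = 0.102, limma). No gene of the 8 other JAK and STAT genes (7 tested), the 14 other inhibitors of the pathway (13 tested) or the 5 receptors that SOCS2 acts on (5 tested) passed for crush in either class. Between classes after sham, Stat5b was higher in Opn4 cells by 1.09 ± 0.33 (adjusted p = 0.0485) and Stat6 lower by a log2 difference of -1.34 ± 0.40 (adjusted p = 0.0488), both by limma. The log2 difference of Stat6 after crush was -1.78 ± 0.40 (adjusted p = 0.0121, limma). Prlr, the prolactin receptor, also passed after sham, by a log2 difference of 1.90 ± 0.39 (adjusted p = 0.00691, limma), with 2.99 RPKM on average in Opn4 cells and 0 in all HB9 sham libraries. These 3 genes are named after their values were seen, and alternative fits of their calls are not reported here. The Stat5b and Stat6 calls after sham lay near the threshold.

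The genes known as STAT3 targets numbered 19, of which 13 were tested. Their median log2 changes with crush were 0.64 in Opn4 cells and 0.65 in HB9 cells, against -0.02 and 0.11 over all genes. By limma, 0 of the 13 passed in Opn4 cells and 2 in HB9 cells, where 1.11% and 6.42% of all genes passed. Cebpb, a transcription factor of injury and inflammation, had 7.61, 6.77 and 5.62 RPKM in HB9 sham and 31.7, 31.7 and 47.1 RPKM in HB9 crush. It rose by a log2 change of 2.29 ± 0.33 (adjusted p = 0.00107, limma) and passed in all 20 alternative fits (adjusted p from 0.00107 to 0.00928). In Opn4 cells Cebpb had 4.70, 3.83 and 3.59 RPKM after sham and 9.52, 15.4 and 10.8 RPKM after crush, with no overlap and a log2 change of 1.33 ± 0.33 that did not pass (adjusted p = 0.0755, limma). The difference between the effects was -0.95 ± 0.47 (adjusted p = 0.422, limma).

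Gal, the precursor of the neuropeptide galanin, also passed in HB9 cells, but its libraries overlapped. It had 19.7, 0.0570 and 0 RPKM in HB9 sham and 608, 371 and 10.1 RPKM in HB9 crush, for a log2 change of 5.60 ± 1.32 (adjusted p = 0.0238, limma). Crush replicate 3 was thus below sham replicate 1. The call was lost in 8 of 20 fits (adjusted p up to 0.342), among them those without HB9 sham replicates 2 or 3 or HB9 crush replicates 1 or 2 (log2 change 4.52 to 4.90, adjusted p from 0.0969 to 0.107). In Opn4 cells Gal lay between 155 and 385 RPKM in all 6 libraries.

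Between the classes, 4 further targets passed by a log2 difference over 2. Junb, an AP-1 transcription factor, was higher in Opn4 cells after sham (2.57 ± 0.50, adjusted p = 0.00471, limma) and after crush (2.47 ± 0.50, adjusted p = 0.00649, limma). Fos, its partner, was higher after crush (2.10 ± 0.45, adjusted p = 0.00939, limma). These calls were lost with rod markers as a covariate, where the adjusted p was 0.139, 0.105 and 0.0741. Serpina3n, a secreted protease inhibitor, was higher after sham (4.76 ± 0.81, adjusted p = 0.00192, limma) and after crush (2.83 ± 0.81, adjusted p = 0.0364, limma), the former call being lost with voom (adjusted p = 0.0994) and the latter in 11 of 20 fits. The latter was lost without any 1 of the Opn4 crush libraries, HB9 sham replicate 2 or HB9 crush replicates 1 or 3 (adjusted p from 0.0508 to 0.0930), and its log2 difference was 1.63 without HB9 crush replicate 3. Gal was higher after sham (6.22 ± 1.32, adjusted p = 0.00814, limma), a call lost with voom (0.239) and with the rod covariate (0.209). Pim1, a kinase gene, was lower after crush (log2 difference -2.13 ± 0.64, adjusted p = 0.0471, limma), a call lost in 15 of 20 fits, among them those without any 1 of the Opn4 sham libraries, Opn4 crush replicates 1 or 2, HB9 sham replicate 2 or any HB9 crush library (adjusted p from 0.0524 to 0.148). Gfap, Lcn2, Icam1 and Vip, also in the list, were listed at 0 in 11 or 12 libraries. The other targets below the filter were Timp1 and Ccnd1, which were not tested. Timp1 had 5.18 and 5.27 RPKM in HB9 crush replicates 1 and 2 and was listed at 0 in the other 10 libraries. Ccnd1 had 6.85 RPKM in Opn4 sham replicate 1, 2.29 RPKM in Opn4 crush replicate 1 and at most 0.619 RPKM elsewhere.

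For the 3 members that passed with crush, the genes with the most similar pattern over the 12 libraries were taken by Pearson correlation of log2(RPKM + 1), as a description across libraries that share their groups. For Cntfr they were BC042782 (0.96), Jun (0.93) and the pseudogene Gm11400 (0.93). BC042782 is an antisense gene that overlaps Jun, so their reads may not be separate. Jun, a transcription factor of the axon injury response, went from 10.9 to 11.3 RPKM in Opn4 sham to 219 to 294 RPKM in Opn4 crush, and from 18.6 to 30.8 RPKM to 243 to 258 RPKM in HB9 cells. For Lifr they were Aldh3a2, Ctns and Rab24 (0.91 each), and Aldh3a2 was likewise highest in HB9 crush, at 49.7 to 53.6 RPKM against 22.4 to 34.6 RPKM elsewhere. For Stat3 they were Dusp1 (0.95), 1700029J07Rik (0.94) and Clic1 (0.94). Dusp1, a phosphatase that acts on stress kinases, had 299 to 445 RPKM in Opn4 crush, 132 to 153 RPKM in HB9 crush, 64.2 to 149 RPKM in Opn4 sham and 27.0 to 30.0 RPKM in HB9 sham.

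Socs3 passed in no crush comparison, and its nearest genes were chosen for mention after their values were seen. They were Sele (0.97), which encodes E-selectin, Bcl3 (0.95), a partner of NF-kappaB, and Emilin2 (0.93), a gene of the extracellular matrix. Sele had 0, 4.09 and 0 RPKM in Opn4 sham, 37.7, 41.3 and 4.64 RPKM in Opn4 crush, and at most 0.259 RPKM in HB9 libraries. Bcl3 had 0, 1.81 and 0 RPKM in Opn4 sham and 9.06, 5.91 and 1.03 RPKM in Opn4 crush. Emilin2 had 0, 9.70 and 0 RPKM in Opn4 sham, 15.2, 21.5 and 19.3 RPKM in Opn4 crush, and was listed at 0 in all HB9 libraries. Opn4 sham replicate 2 was the highest of its group for all 4 genes. For Socs3, Sele and Bcl3, Opn4 crush replicate 3 was the lowest of its group.

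**Figure D4:**
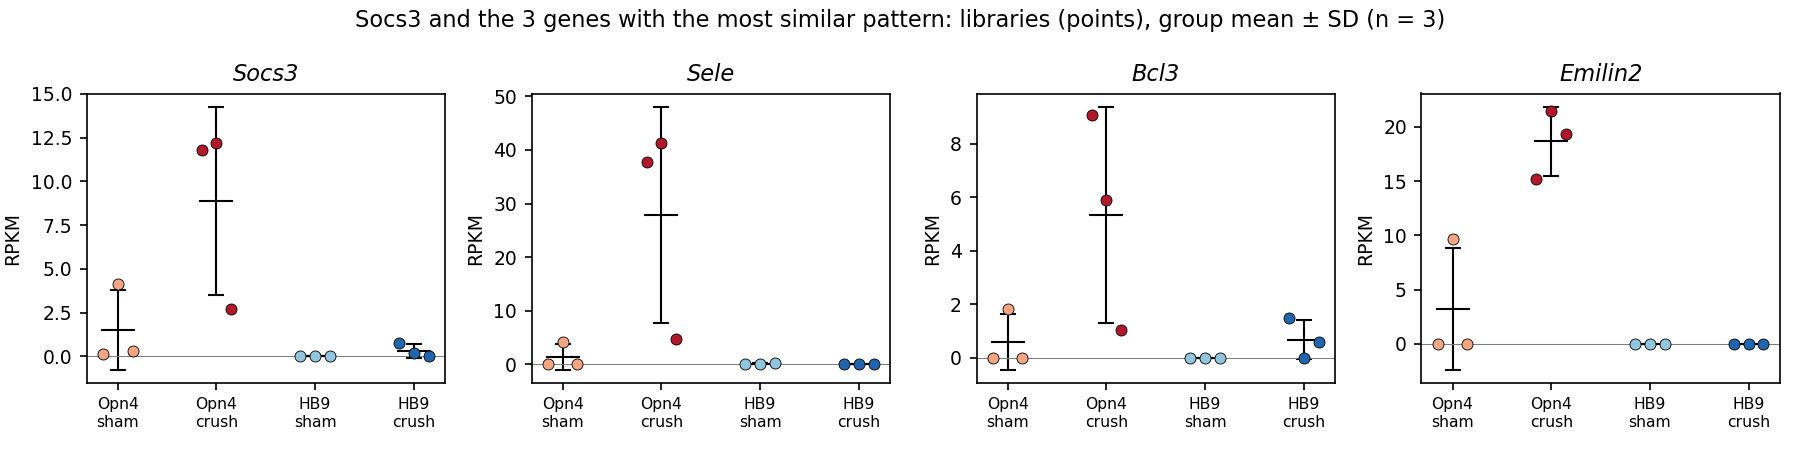
RPKM of Socs3, Sele, Bcl3 and Emilin2 in each library (points), with the mean (long bar) and SD (whiskers) of the 3 libraries of each group, on linear axes of their own. In all 4 panels Opn4 sham replicate 2 is the highest sham library, Opn4 crush holds the highest values, and HB9 libraries hold at most 1.47 RPKM.

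E-selectin is known from blood vessel walls, and SOCS3, STAT3 and the receptor chains are also made by glia, so markers of other cells are given here. The summed level of 5 vascular markers was 0.204, 3.17 and 0.0821 RPKM in Opn4 sham, 8.16, 0.142 and 4.43 RPKM in Opn4 crush, and at most 1.01 RPKM in HB9 libraries. Of the 2 Opn4 crush libraries with the most Socs3 and Sele, replicate 1 had the most vascular RNA of its group and replicate 2 the least. Opn4 sham replicate 2, the highest of its group for Socs3 and Sele, also had the most vascular RNA of that group. Kdr had 7.91, 0 and 3.86 RPKM in Opn4 crush and at most 0.810 RPKM in Opn4 sham, and Cldn5 was listed at 0 in all 3 Opn4 crush libraries and had 2.11 RPKM in Opn4 sham replicate 2. The part of vascular RNA in Socs3 was not tested. The 9 microglial markers summed to 3.41, 6.01 and 4.99 RPKM in Opn4 sham and 0.922, 14.8 and 5.79 RPKM in Opn4 crush. Replicate 2 was thus the highest of both groups, with 9.65 RPKM of Aif1 in Opn4 crush. Opn4 crush replicate 1, also high in Socs3, was the lowest of its group. In HB9 cells the sums were 3.44 to 3.99 RPKM after sham and 5.42 to 5.69 RPKM after crush. C1qb and Tmem119 were listed at 0 in all 12 libraries. The part of microglial RNA in Socs3 was not tested.

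The 11 glial markers summed to 533 to 626 RPKM in Opn4 sham and 806 to 1034 RPKM in Opn4 crush. In HB9 cells they summed to 416 to 421 RPKM after sham and 796 to 2197 RPKM after crush. These sums were thus higher after crush in both classes. Clu and Dkk3 made up most of them. Mean Clu rose from 244 to 591 RPKM in Opn4 cells and from 223 to 1436 RPKM in HB9 cells. Mean Dkk3 fell from 273 to 224 RPKM and from 178 to 71.9 RPKM. Without Clu and Dkk3 the sums were 42.2 to 70.4 RPKM in Opn4 sham and 41.3 to 265 RPKM in Opn4 crush, which overlapped. In HB9 sham and crush they were 13.2 to 20.2 and 52.4 to 82.8 RPKM, without overlap. Rlbp1 in HB9 cells was 2.30 to 3.72 RPKM after sham and 14.7 to 31.5 RPKM after crush. Vim in HB9 cells was 0 to 2.50 RPKM after sham and 6.31 to 40.2 RPKM after crush, Apoe was 0 to 3.05 and 3.51 to 6.18 RPKM, and Glul was 9.46 to 12.9 and 11.1 to 23.3 RPKM. The part of glial RNA in the changes of Cntfr, Lifr and Stat3 was not tested. Of the other markers of the list in HB9 cells, Aqp4 and Sox9 were listed at 0 in all 6 libraries, Gfap was at 0.294 RPKM in 1 crush library and at 0 in the rest, and Slc1a3 and Kcnj10 were at most 0.00885 and 0.0247 RPKM. The sum of the 5 amacrine markers also rose in HB9 cells, from 3.10 to 25.3 RPKM after sham to 50.5 to 129 RPKM after crush. Slc6a9 went from 0.215 to 5.57 RPKM to 35.7 to 42.8 RPKM, and Tfap2b from 0.0236 to 0.286 RPKM to 1.66 to 10.5 RPKM. Gad1, Gad2 and Slc32a1 overlapped between sham and crush. The part of amacrine RNA was not tested.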

How the data were processed

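RNA of 12 pools of 30 picked cells, in 4 groups of 3 by title, was analysed from 1 deposited table of RPKM values, made by the authors, with 1 column per library. Build mm10, Bowtie, TopHat2 2.0.11 and edgeR 3.14.0 are named in the submitters' processing notes, with no role given. Read counting, strand and annotation are not given in the sources used here. Values were tested as log2(RPKM + 1), which damps changes of genes near 0, for the 18269 genes at 1 RPKM or more in at least 3 libraries. All 12 libraries entered 1 limma 3.58.1 model (R 4.3.3) of 4 group means with an intensity trend. There were 5 contrasts, two-sided, each adjusted by Benjamini-Hochberg over the genes tested, with a threshold of 0.05. The fit was tested on simulated data.

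Low RPKM values fell on whole multiples of 1 read (within 1e-05 read), which gave scaling totals of 15104446 to 28195798 reads and a length and reads for each gene. Recovered reads summed to 226.7% to 244.2% of those totals, so they were used for reads, floors and 1 alternative. Floors cover counting error only, since amplified reads are not independent molecules. The 95% intervals are limma's and come from the spread between libraries.

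The members and lists were chosen with earlier results of these data known. All members are named, with list genes past the threshold with crush, or between classes by over 2 on the log2 scale, the ligands (1 of them is not reported here), and the 3 genes most like each member past the threshold with crush. The promoter sequences and GENCODE features are those of GRCm38.p6, the build that mm10 denotes.

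Alternatives were a pseudocount of 0.1, no filter, quantile normalization, a replicate block, only the groups compared, limma voom on recovered reads, a covariate of 11 rod markers, leaving out the pair of libraries that stood apart, and leaving out each library.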

Additional observations from a re-analysis of the deposited data

How the results depend on the processing

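Of 792 values of single members under the alternatives, 711 kept their direction and side of the threshold, 49 lost a call, 5 gained one and 27 changed direction, all 27 of them never past the threshold. Of 180 values of list genes, 140 kept direction and call and 40 lost the call. The fit of only the groups compared has no value for the difference of the crush effects, which needs all 4 groups.

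With only the groups compared, the counts over all genes went from 203 to 13 for crush in Opn4 cells and from 1172 to 1939 in HB9 cells. The count for the difference of the effects went from 149 to 90 with a pseudocount of 0.1 and to 98 with the replicate block. With rod markers as a covariate the class counts fell from 2148 to 837 after sham and from 2325 to 1007 after crush. Leaving out 1 library gave 139 to 224 genes for crush in Opn4 cells, 645 to 1393 in HB9 cells, 61 to 156 for their difference, 1348 to 2353 between classes after sham and 1356 to 2619 after crush.

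Among the members, the count for crush in Opn4 cells went from 1 to 0 with a pseudocount of 0.1, no filter, the replicate block, only the groups compared, voom, the rod covariate and without the pair of libraries that stood apart, and was 0 to 1 on leaving out 1 library. The count in HB9 cells went from 3 to 1 with quantile normalization and was 1 to 3 on leaving out 1 library. Between classes after sham it went from 0 to 1 with the replicate block and without the pair that stood apart, and was 0 to 1 on leaving out 1 library. After crush it went from 2 to 1 with quantile normalization, the replicate block, only the groups compared and without the pair, to 0 with the rod covariate, and was 0 to 2 on leaving out 1 library. The fits with fewer libraries have fewer residual degrees of freedom, and otherwise the cause of these shifts was not tested.

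The changes of direction were these. The class difference of Cntfr after crush (-0.06) was 0.10 with the rod covariate and 0.02 without the pair, and -0.40 to 0.20 on leaving out 1 library. That of Il6st (-0.19) was 0.53 and 0.10 in the same fits, and -0.65 to 0.18. For Jak2, crush in Opn4 cells (0.50) was -0.60 and the difference of effects (0.40) was -0.70 without the pair, and crush in HB9 cells (0.10) was -0.08 with quantile normalization. On leaving out 1 library these 3 values ranged from -0.18 to 1.08, from -0.28 to 0.98 and from -0.33 to 0.33. The class difference of Socs2 after sham (0.01) was -0.09 with quantile normalization and -0.01 with voom, and -0.07 to 0.11 on leaving out 1 library, and after crush (-0.16) it was 0.07 with the rod covariate and -0.32 to 0.00. Leaving out 1 library also gave -0.02 to 0.57 for the difference of effects on Cntfr, -0.20 to 0.63 for crush on Il6st in HB9 cells, and -0.30 to 0.07 and -0.07 to 0.31 for crush in Opn4 cells and the difference of effects on Jak1.

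Quantile normalization moved the median of all genes from -0.13 to 0.01 for the difference of the effects, where the higher share of calls went from 35.6% to 45.6%, and from -0.12 to -0.01 between classes after crush. Over all genes tested, same-numbered libraries of different groups did not deviate together (correlations from -0.02 to 0.08). These values give no sign of pairing by replicate number, though they could miss one that touches few genes. The replicate block is thus only an alternative. It changed the calls given beside Cntfr, Lifr and Stat3 and no other call of a member. With 3 libraries a group, a change smaller than the 95% intervals given could not be told from the spread.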
